A study of Homo sapiens with 42 samples.

Results

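The loops described here rose within 6 h of phorbol ester treatment of K562 cells and were still raised at 72 h. There were 336 of them among 22795 loops kept for analysis, out of 33914 loops in the deposited table. K562 is an established human leukemia cell line with erythroid features. Wild-type cells were crosslinked untreated (0 h) or after 6 h or 72 h in 25 nM PMA (phorbol 12-myristate 13-acetate), with 1% formaldehyde for 10 min, and the medium of the long treatment was renewed at 24 h and 48 h. In situ Hi-C joins DNA ends that lie close together in the nucleus and sequences the joined pairs, so each pair counts as 1 contact between positions of the genome. The 42 deposited samples came from 4 biological replicates at each time. Technical and sequencing repeats were summed, which gave 12 libraries of 736929 to 1472197 contacts in loops.

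A chromatin loop is a pair of distant DNA stretches, its anchors, that touch more often than their surroundings. Many loops of mammalian cells form where cohesin extrudes DNA until it meets CTCF bound at convergent sites, and others join promoters to enhancers. PMA activates protein kinase C and through it MAP kinases and AP-1 transcription factors, and it drives K562 cells toward a megakaryocyte-like state.

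The loops were chosen by their measured counts, scaled to 1000000 contacts per library over the kept loops, those with a mean count of at least 10. These values are called scaled counts below. Every 6 h and every 72 h library had to exceed every 0 h library, the mean at 6 h had to reach 1.3 times the mean at 0 h, and the mean at 72 h had to lie between 0.8 and 1.25 times the mean at 6 h. The first condition was met by 621 loops (2.72% of the kept loops) and the second left 517 of them. Of those, 19 were set aside because they had fallen below 0.8 of their 6 h mean, and 162 because they had risen above 1.25 times that mean. Since values of all 12 libraries entered the choice, contrasts between the times are given below as description.

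Replicates 3 and 4 agreed within sampling noise at 0 h (chi-square per degree of freedom 1.01, p = 0.155) and 72 h (1.001, p = 0.438). At 6 h they were at the border (1.016, p = 0.049), while all other pairs of replicates differed (1.055 to 1.274). They were therefore counted as 1 sample in each mean ± SD (n = 3), and as separate libraries in the rule and the fits, whose p-values are too small if they are 1 sample. Nothing in the labels says whether replicates were separate cultures, so p-values measure the spread between these libraries, which may be technical.

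Anchors of 3 of the most prominent loci lay within 2 kb of a promoter or on it. Their promoter sequences are shown because these starts are the landmarks of the loops described below, with a start that lies in an anchor of a high-count loop, that of PDIA6, for comparison. Each line gives the 250 bases before a start in the RefSeq annotation of GRCh38.p14, read 5′ to 3′ on the gene's strand. Capitals mark matches, on either strand, to the cAMP response element TGACGTCA or the GC box GGGCGG.
PHLDA1 chr12:76031777-76032026 (minus strand): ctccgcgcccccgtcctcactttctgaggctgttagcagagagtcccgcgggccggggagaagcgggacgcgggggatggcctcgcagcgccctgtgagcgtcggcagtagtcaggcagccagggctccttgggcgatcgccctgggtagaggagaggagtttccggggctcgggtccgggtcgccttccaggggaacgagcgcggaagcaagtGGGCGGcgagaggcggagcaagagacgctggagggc
JARID2 chr6:15248605-15248854 (plus strand): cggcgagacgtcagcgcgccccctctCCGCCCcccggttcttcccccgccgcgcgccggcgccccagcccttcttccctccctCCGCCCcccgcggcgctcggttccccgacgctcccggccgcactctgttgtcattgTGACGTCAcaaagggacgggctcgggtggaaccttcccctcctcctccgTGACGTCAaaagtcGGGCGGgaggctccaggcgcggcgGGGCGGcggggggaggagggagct
JMJD1C chr10:63465978-63466227 (minus strand): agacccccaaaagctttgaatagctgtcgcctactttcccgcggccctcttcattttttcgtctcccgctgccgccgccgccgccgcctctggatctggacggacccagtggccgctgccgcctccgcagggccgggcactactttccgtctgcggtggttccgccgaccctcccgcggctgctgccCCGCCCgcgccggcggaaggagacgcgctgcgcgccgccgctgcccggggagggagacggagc
PDIA6 chr2:10832486-10832735 (minus strand): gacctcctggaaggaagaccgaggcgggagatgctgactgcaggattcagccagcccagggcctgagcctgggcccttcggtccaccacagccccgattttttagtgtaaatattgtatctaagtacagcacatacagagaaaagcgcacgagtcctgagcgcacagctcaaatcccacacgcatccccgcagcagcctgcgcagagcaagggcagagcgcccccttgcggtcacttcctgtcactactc
The JARID2 window, 1 of several starts of that gene and the nearest to its loop anchor, held 2 TGACGTCA matches and several GC boxes, the PHLDA1 and JMJD1C windows each held 1 GC box, and the PDIA6 window held neither motif. Windows of 300 bases, from 250 before to 50 after a start, were searched on both strands at 70 promoters in the anchors. TGACGTCA, a match to which is never a match to TGANTCA below, was in 3 of the 70 (4.29%), against 2.64% of 4779 promoters in anchors of all kept loops and 2.26% of all 22155 promoters. The 3 were GNAO1 and the overlapping windows of UBN1 and GLYR1, which share 1 match. GGGCGG was in 41 (58.6%), against 61.8% and 56.3%. These 2 motifs were added after the sequences had been seen. The AP-1 site TGANTCA was in 3 of the 70 (4.29%, against 5.36% and 6.16%), the ETS site CCGGAAG in 12 (17.1%, against 14.1% and 12.8%), the GATA site AGATAA in 6 (8.57%, against 7.3% and 7.88%) and the RUNX site TGTGGTT in 1 (1.43%, against 3.39% and 3.7%). The 12 ETS windows include the overlapping windows of NMNAT1 and LZIC, of RAD1 and BRIX1, and of BAG1 and CHMP5, which share matches. Some genes have several of the 70 windows. The longer CTCF core motif was in 0 of the 70, against 3.06% and 2.52%. Each match describes letters in a promoter window and not a bound site, and anchor sequence outside promoters was not used here.

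The 336 loops rose by a median of 1.56 times at 6 h and stood at 1.64 times their untreated level at 72 h. The median scaled count rose from 20.7 in untreated cells to 32.4 after 6 h, and reached 33.8 after 72 h. Ratios of 6 h to 0 h reached from 1.3 to 3.6, with 137 loops under 1.5 and 33 at 2 or more. Ratios of 72 h to 0 h reached from 1.2 to 3.31, with 44 at 2 or more. As a share of all kept contacts, the loops held 0.848% to 0.879% in the 0 h libraries, 1.3% to 1.32% at 6 h and 1.36% to 1.38% at 72 h. Counts come from many cells, so more cells with a contact and a more frequent contact per cell cannot be told apart, and contacts give no marker levels with which to check the cells. The map of all 336 loops by library shows their values. Both the step from 0 h to 6 h and the level counts after it were conditions of the rule.

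**Figure D1:**
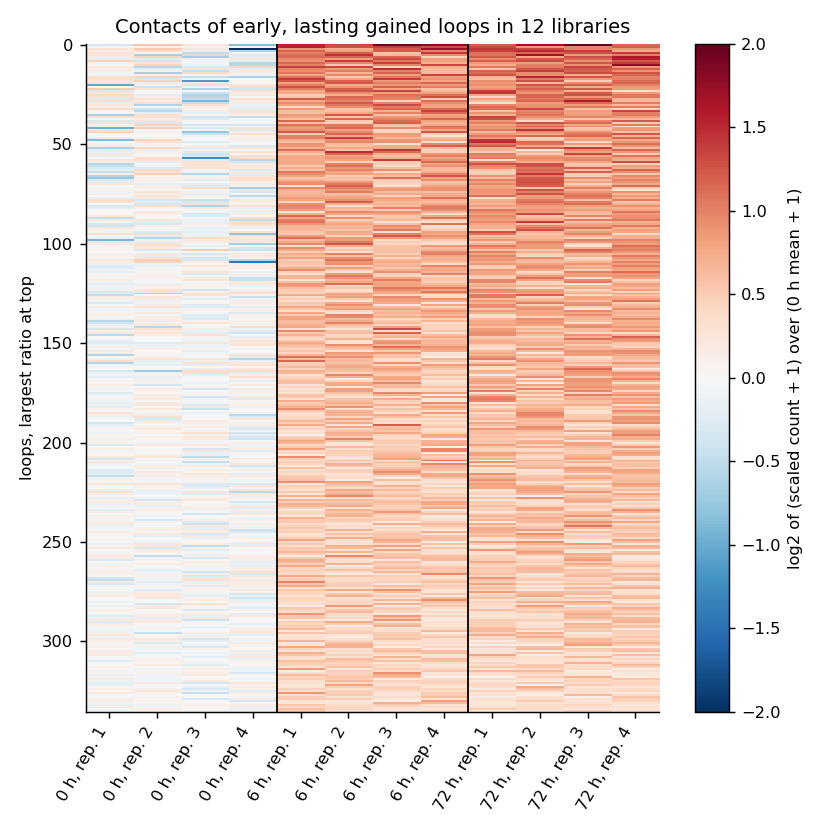
Each row is 1 of the 336 loops, ordered by its mean ratio, and each column 1 of the 12 libraries. Colour gives the log2 of the scaled count plus 1 over the loop's 0 h mean plus 1, and all 6 h and 72 h columns are raised over the 0 h columns, as the rule required.

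In edgeR's quasi-likelihood fit of all 12 libraries, 166 of the 336 loops (49.4%) were past the threshold (Benjamini-Hochberg adjusted p of 0.05 over all kept loops) as higher at 6 h, where 2.67% of all kept loops were. At 72 h 269 of them (80.1%) were past it, against 17.4% of all kept loops. No loop was lower at either time, where 4.19% and 17.2% of all kept loops were. Both times were passed by 149 loops, 6 h alone by 17, 72 h alone by 120 and neither by 50. The rule used the same contrasts, so nothing is read from these shares. The count at 6 h fell to 64 without 0 h replicate 1, to 85 without 6 h replicate 2 and to 110 without 6 h replicate 1. With replicates 3 and 4 summed at every time 123 were called at 6 h and 252 at 72 h, and DESeq2 called 31 at 6 h and 179 at 72 h, where it called 0.395% and 10.3% of all kept loops. Between 6 h and 72 h, 0 loops were past the threshold in either direction, against 11.2% of kept loops higher and 10.1% lower at 72 h, a contrast that the rule had bounded. At an unadjusted p under 0.05 edgeR had 6 higher and 2 lower at 72 h, and DESeq2 1 and 0, with 0 calls.

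Small drifts after 6 h ran in both directions. The mean at 72 h was above that at 6 h for 227 loops and below it for 109. Every 72 h library exceeded every 6 h library at 6 loops (1.79%, against 11% of kept loops), and the reverse held at 3 (0.893%, against 9.07%). The rule had bounded the ratio of the 72 h mean to the 6 h mean, so low shares here follow from the choice. The authors' deposited table classed 75 of the 336 as gained (22.3%, against 4.39% of all kept loops), 261 as static (77.7%, against 93.4%) and 0 as lost (2.21% of all kept loops), and those 75 were 7.5% of its 1000 kept loops in the gained class. Of the 290 with an adjusted p in the authors' deposited table, 98 were below 0.05 (33.8%, against 14.8% of all kept loops with a value). The authors' classes and p-values describe the same libraries that the rule used, so nothing is read from these shares.

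Values at the edges of the rule show how fine its boundaries are. The loops nearest inside the limit of 1.3 were loop30383 (1.3005) and loop13334 (1.3029), and the nearest outside were loop20158 (1.2993) and loop18642 (1.2974). At the lower limit of the ratio of 72 h to 6 h, loop19230 (0.8001) and loop23727 (0.8036) were inside and loop3367 (0.7992) and loop15267 (0.7945) outside. At the upper limit, loop29083 (1.2483) and loop11424 (1.2478) were inside and loop10450 and loop22868 (both 1.2517) outside.

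The rule was then applied to 2 replicates at a time, so that the other 2 could be measured without having been used for the choice. The filter on mean count used all libraries. Replicates 1 and 2 alone chose 1329 loops. In replicates 3 and 4 these loops had a median log2 fold change of 0.19 at 6 h, against 0.50 in the replicates that chose them and 0.0 for all kept loops. At 72 h it was 0.37, against 0.56 in the choosing replicates and 0.01 for all kept loops. Of the 1329 loops 69.4% were higher at 6 h in replicates 3 and 4 (50.1% of all kept loops) and 82.3% at 72 h (50.8%).

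Few single loops passed a test in the replicates that had not chosen them. In an edgeR fit of replicates 3 and 4, 20 of the 1329 (1.5%) were called higher at 6 h, against 0.333% of all kept loops, and 208 (15.7%) at 72 h, against 7.81%. Lower calls numbered 0 and 2. Without adjustment, 17 loops were lower at 6 h with p under 0.05. These 2 replicates agree within sampling noise at 0 h and 72 h, so the calls rest on a spread that may be technical.

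The opposite choice gave similar medians at 6 h. Replicates 3 and 4 alone chose 1367 loops, whose median log2 fold change in replicates 1 and 2 was 0.22 at 6 h (0.54 in the choosing replicates) and 0.28 at 72 h (0.55 there). Of these loops 74.7% were higher at 6 h and 75.6% at 72 h, against 50% and 49.1% of all kept loops. In edgeR 41 (3.0%) were called higher at 6 h, against 0.816% of all kept loops, and 241 (17.6%) at 72 h, against 10.6%, while 0 (15 at an unadjusted p under 0.05) and 10 were called lower. The 6 h and 72 h contrasts share their 0 h libraries within each pair of replicates.

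The change from 6 h to 72 h was measured in the same way. The median log2 fold change of 72 h against 6 h was 0.18 in replicates 3 and 4 for loops chosen in 1 and 2, and 0.07 in replicates 1 and 2 for loops chosen in 3 and 4. In the choosing replicates it was 0.03 and -0.02, and over all kept loops 0.0. In the replicates that had not chosen them 69.1% and 57.2% of the loops were higher at 72 h than at 6 h, against 49.9% of all kept loops. Level counts between 6 h and 72 h were a condition of the choice. Outside the choosing replicates the loops tended to rise further, by less in replicates 1 and 2. Both choices shared 241 loops, 18.1% of the 1329 and 17.6% of the 1367, where 6.0% and 5.83% of all kept loops met the rule in the other pair. Of the 336 loops 245 met the rule in replicates 1 and 2 alone, 245 in replicates 3 and 4 alone and 169 in both. The 336 were chosen on these same libraries, so in either pair their treated libraries exceeded the untreated ones by choice. Only the limits on fold and ratio could fail, so these counts are description and not replication.

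**Figure D2:**
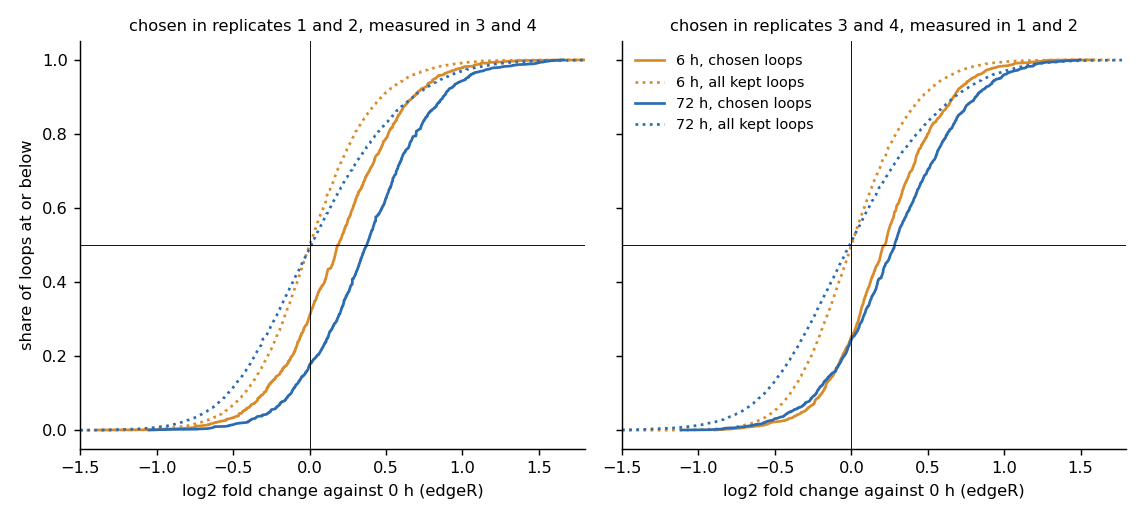
Cumulative share of loops (vertical axis) by log2 fold change against 0 h (horizontal axis) in the replicates that did not choose them, for 6 h and 72 h, beside all kept loops. The chosen loops lie to the right of all kept loops in both panels, with medians of 0.19 and 0.37 on the left and 0.22 and 0.28 on the right.

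PHLDA1, a pleckstrin homology-like domain gene that responds early to many stimuli, was the only protein-coding gene in the densest cluster of these loops. The cluster spans 410 kb of chromosome 12, from 75620001 to 76030000. Of the 7 kept loops in the span 6 met the rule, linked end to end by shared or adjacent anchors. The gene lies at chr12:76025447-76031776 on the minus strand, so its end is in the rightmost anchor, chr12:76020001-76030000, and its start is 1.8 kb outside it.

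The largest rise there was between anchors that hold no protein-coding gene. Loop24024 joined chr12:75780001-75790000 and chr12:75940001-75950000, 160 kb apart. It had scaled counts of 20.6, 22.0, 19.6 and 21.4 in the 0 h libraries, 62.9, 51.7, 55.8 and 52.0 at 6 h, and 53.9, 38.4, 42.0 and 49.9 at 72 h (replicates 1 to 4 here and below). Its 0 h libraries were close together and all treated libraries stood well above them. The means were 21.0 ± 0.82, 56.2 ± 5.9 and 46.1 ± 7.8 (SD, n = 3), and the log2 fold changes were 1.3 (SE 0.17, adjusted p = 6.9e-09 in edgeR) at 6 h and 1.04 (SE 0.17, adjusted p = 5.2e-07) at 72 h.

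2 of the loops that end at the PHLDA1 anchor rose at both times. Loop24027, 80 kb long from chr12:75940001-75950000, had counts of 51.1, 51.6, 49.1 and 54.1 at 0 h, 91.8, 79.1, 72.9 and 100.4 at 6 h, and 109, 95.4, 93.6 and 89.7 at 72 h. Its log2 fold changes were 0.69 (SE 0.13, adjusted p = 0.00016 in edgeR) and 0.85 (SE 0.13, adjusted p = 2e-08). Loop24028, from chr12:75980001-75990000, was the shortest of all 336 at 40 kb. It had counts of 61.1, 61.1, 68.7 and 63.1 at 0 h, 123, 91.8, 104 and 110.0 at 6 h, and 116, 107, 89.3 and 111 at 72 h. Its log2 fold changes were 0.71 (SE 0.12, adjusted p = 2.1e-05 in edgeR) and 0.69 (SE 0.12, adjusted p = 1.4e-06). That the treated libraries of these loops all lay above the untreated ones was a condition of the rule.

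The other gained loops beside PHLDA1 had smaller fold changes at 6 h. Loop24019 went from 31.4 ± 3.1 at 0 h to 43.7 ± 5.8 at 6 h and 52.4 ± 5.8 at 72 h, and loop24026 from 51.3 ± 2.5 to 68.6 ± 1.8 and 84.0 ± 10.0 (SD, n = 3). Both passed the edgeR test at 72 h (adjusted p = 0.00011 and 8e-05) and not at 6 h (adjusted p = 0.081 and 0.068). Loop24023, the widest of the gained loops that end at the PHLDA1 anchor, had means of 38.7 ± 2.9, 51.6 ± 6.3 and 50.3 ± 5.3 and passed at neither time (adjusted p = 0.17 and 0.11). The loop in the span that did not meet the rule, loop24021, also ends at that anchor, 320 kb from its partner. Its log2 fold changes were -0.03 and 0.02.

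**Figure D3:**
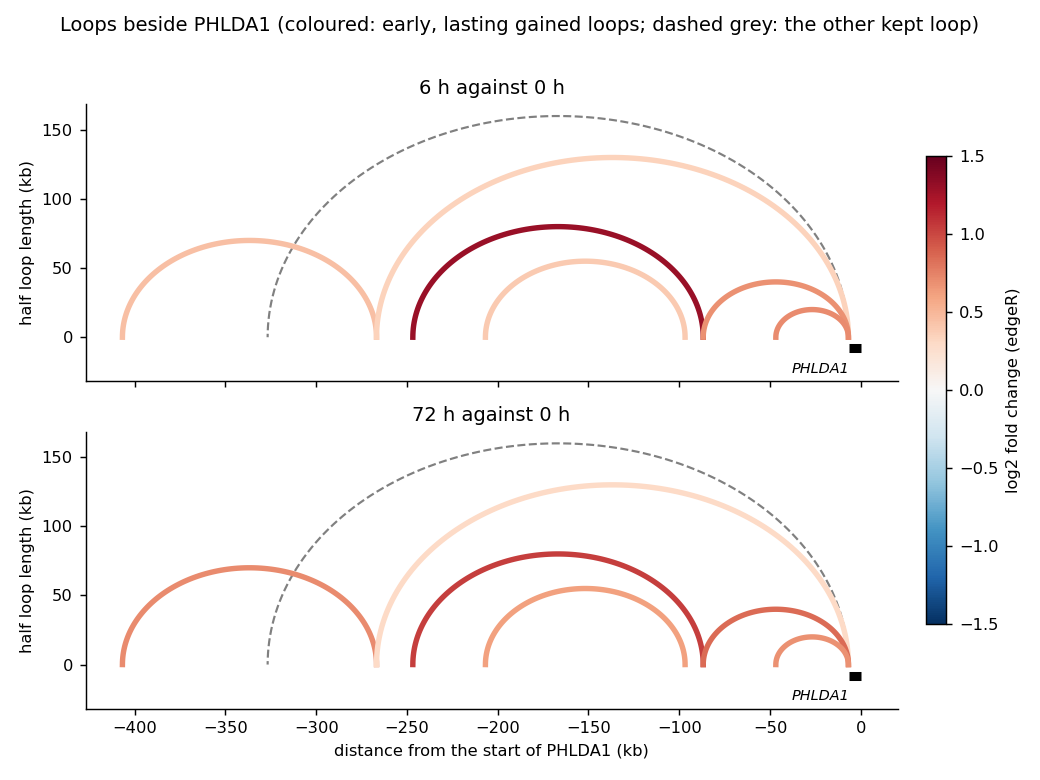
Loops beside PHLDA1 (black bar) as arcs between anchor centres, by distance from the start of the gene in kb, with height equal to the loop's length over 2. Colour gives the edgeR log2 fold change of the 6 gained loops at 6 h (top) and 72 h (bottom), largest for loop24024 (1.3 and 1.04), and the dashed grey arc is loop24021 (-0.03 and 0.02).

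The other cluster of 6 linked loops spans chr6:13900001-15630000, with the genes RNF182, CD83, JARID2 and DTNBP1. JARID2 encodes an accessory subunit of the Polycomb repressive complex PRC2, CD83 a surface protein of activated dendritic cells, and DTNBP1 the protein dysbindin. The longest of the 336 loops, loop13324, joined the outer ends of this span over 1720 kb, from an anchor 14.4 kb from the nearest start, of RNF182, to an anchor inside DTNBP1. Its scaled counts were 3.55, 7.64, 6.14 and 2.25 at 0 h, 16.0, 13.7, 21.4 and 19.4 at 6 h, and 12.6, 17.6, 22.6 and 12 at 72 h. The lowest treated library exceeded the highest untreated one at few contacts each. It had the largest ratios of all, 3.6 at 6 h and 3.31 at 72 h, and its log2 fold changes were 1.46 (SE 0.29, adjusted p = 0.00021 in edgeR) and 1.36 (SE 0.28, adjusted p = 4.9e-05).

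At JARID2 the gained loops and the lost loops used neighbouring anchors. Loop13341 and loop13350 met in chr6:15250001-15260000, 1.1 kb inside the gene from the start shown above. Loop13341, which reaches 520 kb upstream, went from 17.1 ± 1.2 at 0 h to 29.7 ± 5.8 at 6 h and 35.9 ± 2.7 at 72 h (log2 0.72 and 0.95, adjusted p = 0.017 and 2.9e-05 in edgeR). Loop13350, which reaches to DTNBP1, went from 14.4 ± 4.4 to 23.6 ± 1.7 and 25.4 ± 1.5 (log2 0.58 and 0.70, adjusted p = 0.093 and 0.0061). The adjacent anchor, which begins at base 15240001, holds the JARID2 start, and its loops into the gene body fell. Loop13348 had log2 fold changes of -0.60 at 6 h (adjusted p = 0.003 in edgeR) and -1.06 at 72 h (adjusted p = 1.9e-09), and loop13349 of -0.46 (adjusted p = 0.046) and -0.76 (adjusted p = 3.2e-05). The 6 h call of loop13349 ended without replicate 1 (0.21) or 4 (0.13) of 0 h or replicate 1 (0.2), 2 (0.23) or 4 (0.077) of 6 h. These 2 loops were named after their values were seen.

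Further gained loops of this span lay between CD83 and JARID2. Loop13343 went from 30.5 ± 1.3 to 47.1 ± 8.2 and 39.7 ± 4.6, and loop13344 from 31.3 ± 2.8 to 51.8 ± 8.4 and 58.2 ± 1.9, both ending in chr6:15060001-15070000. Their edgeR adjusted p values were 0.022 and 0.0088 at 6 h and 0.072 and 1e-05 at 72 h. With the length correction the log2 fold change of loop13324 at 72 h was 0.91, against 1.36, and the 6 h calls of loop13341 (0.061) and loop13343 (0.053) ended. Calls in this cluster also depended on single libraries. That of loop13341 ended without 6 h replicate 2 (adjusted p = 0.067) or 3 (0.059), that of loop13343 without replicate 1 of 0 h (0.054) or replicate 1 (0.11) or 3 (0.069) of 6 h, and that of loop13344 without 0 h replicate 1 (0.053) or 6 h replicate 2 (0.088). The 72 h call of loop13350 ended without 0 h replicate 1 (0.087). Of the 23 other kept loops in the span 3 were called higher and 3 lower at 6 h, and 6 higher and 7 lower at 72 h, so rising and falling loops lay side by side.

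JMJD1C, a Jumonji-domain protein of the KDM3 family, and REEP3, an endoplasmic reticulum protein, lie under the pair of linked loops with the highest counts. Loop20468, between chr10:63630001-63640000 and chr10:63710001-63720000, had the highest mean count of all 336. Its scaled counts were 90.9, 108, 104 and 89 at 0 h, 176, 136, 170.1 and 166 at 6 h, and 165, 161, 156 and 168 at 72 h. Among the treated libraries 6 h replicate 2 was the lowest. The means were 98.5 ± 8.7, 159.7 ± 21.2 and 163 ± 2.4 (SD, n = 3), and the log2 fold changes were 0.68 at both times (SE 0.11 and 0.10, adjusted p = 2.7e-06 and 4e-08 in edgeR).

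Loop20466 ends in the same right anchor and starts at chr10:63460001-63470000, which holds the JMJD1C start shown above. That gene has more than 1 start, and the outermost, at base 63521890, lies outside this anchor. Loop20466 went from 29.3 ± 1.5 at 0 h to 43.8 ± 6.0 at 6 h and 42.1 ± 3.1 at 72 h (log2 0.56 and 0.49, adjusted p = 0.025 and 0.014 in edgeR). Its 6 h call ended without replicate 1 (0.096) or 4 (0.075) of 0 h or replicate 4 of 6 h (0.16), and its 72 h call without 0 h replicate 1 (0.052) or 72 h replicate 4 (0.064). The loop beside it that did not meet the rule, loop20465, starts at the same left anchor and had log2 fold changes of 0.04 and 0.09.

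Most of the loops were not clustered. Linking loops by shared or adjacent anchors left 305 groups, of which 282 held a single loop, 21 held 2 and 2 held 6, those of PHLDA1 and of CD83 to JARID2.

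The remaining loops with the largest ratios had low counts and spread widely between libraries. Loop29725, from CDC27, a subunit of the anaphase-promoting complex, to NPEPPS, an aminopeptidase, had counts of 12.8, 15.3, 12.3 and 1.13 at 0 h, 20, 17.6, 25.7 and 36.3 at 6 h, and 29.7, 28, 21.5 and 19.4 at 72 h. Its lowest value, that of 0 h replicate 4, was 1 contact. Loop18779, from ADCY8, an adenylyl cyclase, to OC90, went from 7.76 ± 1.4 to 17.0 ± 1.3 and 18.3 ± 1.7. Loop2343, with an anchor in KIFAP3, which encodes a kinesin-associated protein, went from 9.26 ± 3.1 to 22.6 ± 5.4 and 24.7 ± 7.4 (SD, n = 3). These loops were 450, 1240 and 910 kb long.

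3 further loops had ratios above 2 at both times. Loop19493, with an anchor in AUH, an RNA-binding enoyl-CoA hydratase, went from 11.3 ± 3.4 to 22.6 ± 2.8 and 24.9 ± 5.8. Loop13518, whose right anchor holds the olfactory receptor gene OR2H2, went from 6.06 ± 1.8 to 12.6 ± 1.7 and 15.7 ± 2.3. Loop23590, from PDZRN4 to PRICKLE1, a planar cell polarity gene, went from 5.40 ± 0.91 to 12 ± 1.3 and 14.2 ± 2.3 (SD, n = 3). All 6 loops of this kind passed the edgeR test at 6 h, with adjusted p from 0.004 to 0.048, and at 72 h, with adjusted p from 3.5e-05 to 0.00089.

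The 6 h calls of these 6 loops were fragile. That of loop29725 ended without 0 h replicate 4 (adjusted p = 0.054 in edgeR) or 6 h replicate 4 (0.061), that of loop18779 without 6 h replicate 4 (0.061) and that of loop2343 without 6 h replicate 2 (0.052). That of loop19493 ended without 0 h replicate 3 (0.058) or 6 h replicate 2 (0.055). Loop13518 lost its call without any of 7 libraries, all of 0 h and 6 h except 0 h replicate 2 (0.054 to 0.12), and loop23590 without any of 11, all except 72 h replicate 4 (0.051 to 0.15). Calls at 6 h also ended for loop13518 and loop23590 with replicates 3 and 4 summed (0.056 and 0.062) and with the length correction (0.11 for both).

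**Figure D4:**
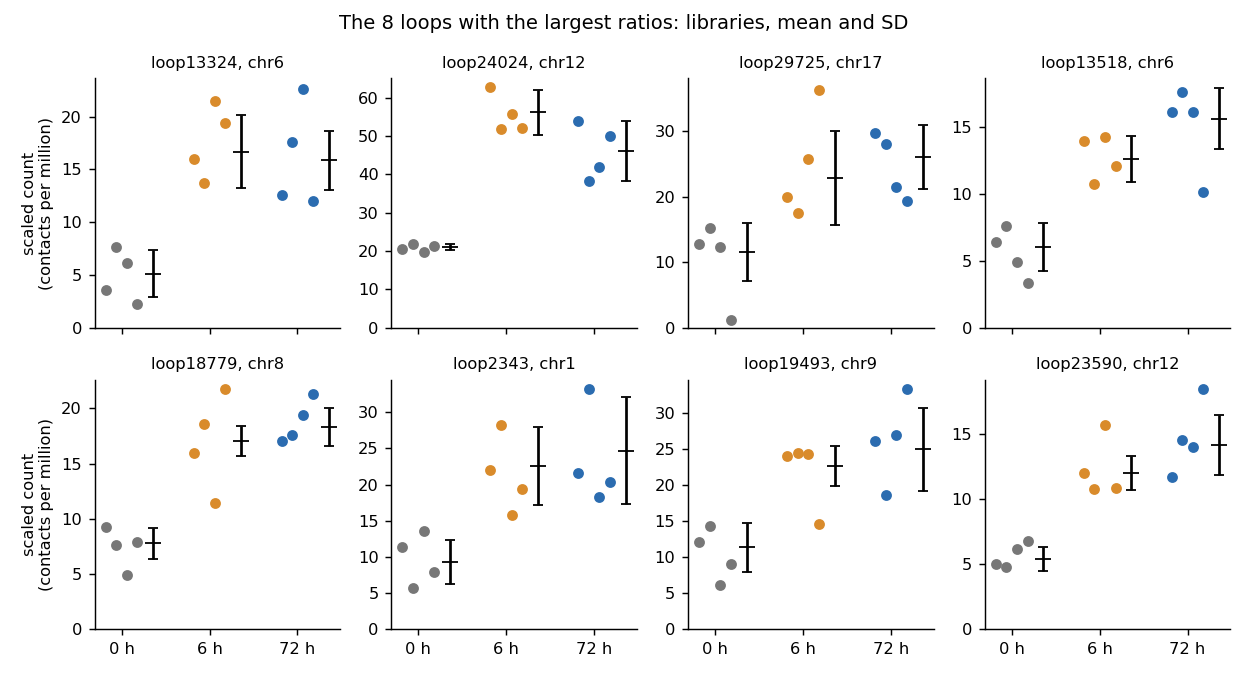
Scaled counts of the 8 loops with the largest ratios at 0 h, 6 h and 72 h. Points are the libraries of replicates 1 to 4 from left to right, bars are mean ± SD (n = 3, replicates 3 and 4 averaged), and loop24024 on chromosome 12 shows the least spread at 0 h (21.0 ± 0.82).

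Apart from loop20468, the loops with the highest counts rose by less, at about the smallest fold the rule admits. Loop3307, whose left anchor holds the PDIA6 start shown above (a protein disulfide isomerase of the endoplasmic reticulum), had counts of 109, 111, 103 and 113 at 0 h, 156, 146, 127 and 143 at 6 h, and 148, 131, 179 and 148 at 72 h. The means rose by 1.32 and 1.39 times (log2 0.36 and 0.42, adjusted p = 0.022 and 0.00064 in edgeR). Loop252, with an anchor in WNT4, a secreted Wnt ligand, went from 94.9 ± 2.2 to 126 ± 8.2 and 120.6 ± 16.0. Loop5381, between ZBTB47 and CCDC13, went from 95.5 ± 7.4 to 125 ± 7.2 and 122 ± 17.5 (SD, n = 3).

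4 others had slightly lower counts. Loop13728, with an anchor in RSPH9, a radial spoke protein gene, went from 84.8 ± 4.0 to 112 ± 11.9 and 119 ± 6.4. Loop20006, inside FRMD4A, went from 84.8 ± 5.1 to 112 ± 3.2 and 121 ± 16.4. Loop21933, 50 kb long and ending in DAGLA, a diacylglycerol lipase gene, went from 88.3 ± 11.9 to 113 ± 5.3 and 114 ± 3.2. Loop18665, on chromosome 8 and 50 kb long with no protein-coding gene over its anchors, went from 85.3 ± 1.1 to 111 ± 5.6 and 128 ± 12.7 (SD, n = 3).

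These rises were near the threshold at 6 h. The adjusted p of the 7 loops from loop3307 to loop18665 lay between 0.022 and 0.049 at 6 h and between 1.6e-05 and 0.022 at 72 h (edgeR). Loop3307 lost its 6 h call without replicate 1 (0.067) or 3 (0.055) of 0 h or replicate 1 of 6 h (0.099). Loop252 lost it without replicate 1 (0.087) or 2 (0.056) of 0 h or replicate 2 (0.087) or 4 (0.085) of 6 h, and its 72 h call without 72 h replicate 3 (0.13). Loop5381 lost it without 0 h replicate 3 (0.13) or 6 h replicate 1 (0.081), 3 (0.071) or 4 (0.051), and its 72 h call without 0 h replicate 3 (0.12) or 72 h replicate 2 (0.16). Loop13728 and loop18665 lost it without any of 11 libraries (all but 72 h replicate 4), loop20006 without any of 11 (all but 6 h replicate 4) and loop21933 without any of 10 (all but 0 h replicate 2 and 72 h replicate 4), with adjusted p from 0.051 to 0.2, and the 72 h call of loop21933 also ended without 0 h replicate 4 (0.066). With replicates 3 and 4 summed, the 6 h calls of loop252 (0.052), loop5381 (0.065), loop13728 (0.085), loop18665 (0.093), loop20006 (0.086) and loop21933 (0.099) and the 72 h call of loop5381 (0.054) ended, as did the 6 h call of loop252 with the length correction (0.053). Across all 28 loops named by rule, 23 were called at 6 h and 18 of those calls ended without at least 1 library, and 25 were called at 72 h, of which 6 ended. With DESeq2, 9 of the 28 lost their call at 6 h and 5 at 72 h. It gave 11 no adjusted p at 6 h. The lost calls included those of loop252 at both times (DESeq2 adjusted p = 0.089 and 0.054) and of loop3307 at 6 h (0.07).

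Length ranged from 40 to 1720 kb, with a median of 320 kb, against 280 kb for all kept loops. With the length correction the median of the loops that met the rule was 200 kb, below that of all kept loops, so the direction of this difference depends on the correction. The share of kept loops that met the rule was 29 of 3309 (0.876%) among loops of up to 100 kb, highest between 800 and 1600 kb (36 of 1489, 2.42%) and lowest above 1600 kb (1 of 190, 0.526%). After loop13324 the longest were loop4184 (1460 kb), which starts 2.2 kb from MMADHC, a gene of vitamin B12 handling, and loop13748 (1440 kb), which ends in CLIC5, a chloride intracellular channel gene. Loop4184 went from 12.9 ± 1.3 to 23.6 ± 2.4 and 20.7 ± 1.9, and loop13748 from 18.7 ± 1.4 to 26.0 ± 2.6 and 27.3 ± 3.4 (SD, n = 3). Loop13748 passed the edgeR test at neither time (adjusted p = 0.2 and 0.051), and with the length correction its log2 fold change at 72 h was 0.01, against 0.48 without it. Loop4184 passed at both (0.023 and 0.032), and the calls ended without any of 4 libraries at 6 h (0 h replicates 1 and 3, 6 h replicates 2 and 4; 0.066 to 0.086) and any of 5 at 72 h (0 h replicates 1 and 3, 72 h replicates 1, 3 and 4; 0.053 to 0.09). They also ended with the length correction (0.074 and 0.69), which took the log2 fold change at 72 h from 0.59 to 0.13, and DESeq2 did not call loop4184 at 72 h (0.11).

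The loops were of middling strength by their mean over all 12 libraries, most of which the rule required to be raised. At 0 h they were weaker than most, with a median scaled count of 20.7, against 30.2 for all kept loops. These counts entered the rule, so the shares by strength are description. Among kept loops divided into 5 classes of near-equal size by mean count, the share meeting the rule was 1.2%, 1.87%, 2.19%, 1.32% and 0.791% from the weakest to the strongest. Their median mean count was 27.8, against 31.3 for all kept loops, and counting error alone (exact Poisson, 95%) puts a count of 28 between 18.6 and 40.5. Chromosome 12 had the highest share (32 of 1305 kept loops, 2.45%) and chromosome 19 the lowest (3 of 642, 0.467%).

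Genes were at the anchors about as often as at other loops or somewhat less often. An end of a protein-coding gene lay in at least 1 anchor of 109 loops (32.4%, against 35.9% of all kept loops) and in both anchors of 14 (4.17%, against 6.14%). A gene lay over at least 1 anchor of 265 loops (78.9%, against 79.0%). Starts could be placed for 15812 of 19970 protein-coding genes (79.2%), none of them on chromosome 8, so counts of starts are too low. Outside chromosome 8 a start lay in an anchor of 45 of 309 loops (14.6%, against 19.4% of kept loops), and both values have the same gap. These shares are given without a test.

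Of the 45 loops with a start in an anchor, 27 were called higher at 6 h, 35 at 72 h and 21 at both (60%, 77.8% and 46.7%, against 49.4%, 80.1% and 44.3% of all 336), in contrasts that the rule used. The genes named from here to the end of the paragraph were chosen after their values were seen. SPATA31E1, a member of a testis-expressed gene family, was at loop19454, which went from 15.9 to 32.9 and 34 scaled contacts (log2 0.92 and 0.98, adjusted p = 0.0017 and 3.1e-05 in edgeR). NOS1, the neuronal nitric oxide synthase, was at loop24627, which went from 33.0 to 54.7 and 55.6 (log2 0.63 and 0.71, adjusted p = 0.0059 and 8.9e-05). E2F2, a cell-cycle transcription factor, was at loop262, which went from 23.5 to 39.1 and 39.6 (log2 0.59 and 0.66, adjusted p = 0.031 and 0.0015). MAPK9, the kinase JNK2, was at loop13121, with mean scaled counts of 46.5, 61.8 and 72.3, which passed at 72 h alone (adjusted p = 0.064 and 0.00018). SULF2, an extracellular sulfatase, was at loop31787, which went from 24.2 to 37.8 and 38.1 (log2 0.57 at both times, adjusted p = 0.039 and 0.0079). The 6 h call ended for loop24627 without replicate 2 of 6 h (0.1), and for loop262 without any of 5 libraries (replicates 1 to 3 of 0 h, 1 and 3 of 6 h; 0.06 to 0.17). It ended for loop31787 without any of 6 libraries (replicates 1 to 3 of 0 h and 2 to 4 of 6 h; 0.058 to 0.12), and its 72 h call without replicate 3 of 72 h (0.12).

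None of the 336 loops had an end of a gene in an anchor from any of 8 lists for PMA and K562 cells. Such genes were at 115 of all kept loops (0.504%), so 0 of 336 is near the background. The lists were megakaryocyte and platelet genes, erythroid genes, AP-1 and immediate early genes, haematopoietic transcription factors, protein kinase C and MAPK signalling, NF-kB and cytokines, adhesion and actin cytoskeleton, and monocyte genes. Loops with listed genes at an anchor were called higher at 6 h in 1 of 7 for megakaryocyte genes, 1 of 30 for AP-1 and immediate early genes, 1 of 16 for protein kinase C and MAPK genes, and 0 for the other 5 lists. Among all kept loops 2.67% were called higher and 4.19% lower at 6 h, and 17.4% and 17.2% at 72 h. The 9 loops of erythroid genes had a median log2 fold change of -0.29 at 6 h and -0.42 at 72 h, with 2 and 7 called lower. The 16 loops of protein kinase C and MAPK genes had medians of 0.14 and 0.41, with 1 called higher and 1 lower at 6 h and 8 higher and 2 lower at 72 h. Those 8 included loop25755, loop25756, loop25757 and loop25758, all at SPRY2, and loop25756 was also the 1 called higher at 6 h. At 72 h, 3 of the 7 loops of megakaryocyte genes were called higher and 2 lower. For AP-1 and immediate early genes it was 4 and 6 of 30, and for transcription factors 4 and 5 of 19. For NF-kB and cytokine genes it was 1 and 3 of 15. Adhesion genes had 3 and 6 of 12, and monocyte genes 1 and 3 of 7. Over all kept loops the median was 0.01 at both times.

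The early, lasting gained loops shared anchors with other loops, of which more were called higher at 72 h than at 6 h. At 270 of the 336 loops, 634 other kept loops used an anchor of theirs. Of these 36 (5.68%) were called higher and 22 (3.47%) lower at 6 h, and 186 (29.3%) higher and 47 (7.41%) lower at 72 h. Among the 21825 other kept loops, which share none of these anchors, 1.86% were called higher and 4.27% lower at 6 h, and 16.1% higher and 17.7% lower at 72 h. Some of them have an anchor in the adjacent bin. The median log2 fold changes of the neighbours were 0.09 and 0.23, against 0.01 and 0.0 for loops that share no anchor. Counts of higher calls at 6 h fell to 14 without 0 h replicate 1 and to 22 without 6 h replicate 3. Loops that share an anchor are not independent, and no test of the difference was made.

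**Figure D5:**
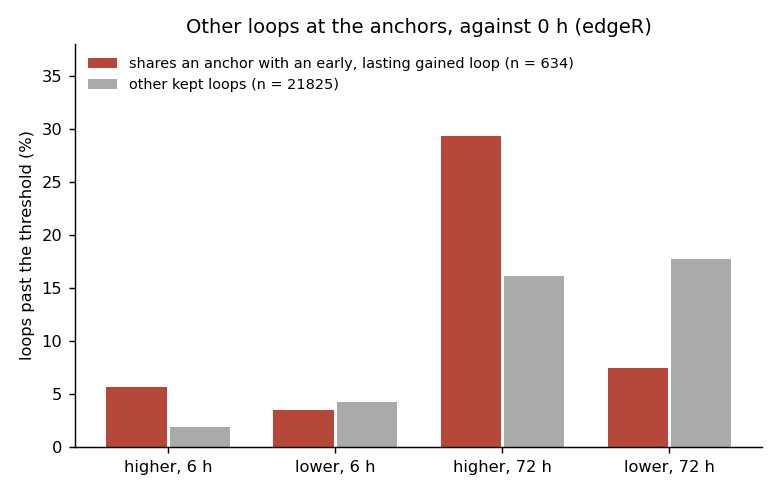
Percent of loops called higher or lower than 0 h in edgeR (vertical axis, from 0) among the 634 other loops that share an anchor with the early, lasting gained loops and among the 21825 loops that share none. Higher calls made up 29.3% of the neighbours and 16.1% of the others at 72 h.

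Loops with the same early rise that did not stay level are given for comparison, without a test. The 162 loops that rose on past 1.25 times their 6 h mean had median scaled counts of 19.4, 29.5 and 42.7 at the 3 times and a median length of 290 kb. The 19 that fell back below 0.8 had 14, 27.7 and 19.5 and a median length of 460 kb. The 336 loops, level by the rule, lay between these sets in length, and their 6 h median, 32.4, was above both.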

How the data were processed

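In situ Hi-C contacts were measured in K562 cells at 0 h, 6 h and 72 h of PMA. The authors deposited 1 table of raw contact counts per loop in 30 columns, with anchors of 10 kb, log2 fold changes, an adjusted p-value and a class, per the file headers. The submitters' processing notes name hg38, Juicer 1.5.6, DESeq and DESeq2, and the caller of the loops is not given in the sources used here. Anchors are given counted from 1, and genes are those of the RefSeq table for GRCh38.p14, the same build. The loops and the gene lists were chosen with earlier results of these data known.

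Columns were summed per biological replicate. Kept loops, of mean count 10 or more, entered edgeR (version 4.0.16, under R 4.3.3), with TMM, its quasi-likelihood test, Benjamini-Hochberg adjustment and prior count 2, in 1 model of the 12 libraries without covariates. Standard errors are the log2 fold change over the root of F. Contact counts include local background, which was not subtracted, and intervals cover counting error only.

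Loops were named by rule: the 8 largest mean ratios, the 8 highest counts, the 3 longest and 3 shortest, up to 5 of each of the 3 largest groups of linked loops (ties by mean count), any at a listed gene and the nearest to each limit. Alternatives were DESeq2 1.42.0, other scalings, filters and limits, a length correction, a replicate block and leaving out each library. The fits were tested on simulated data.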

Additional observations from a re-analysis of the deposited data

Results flagged for a closer look

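Among the 84 groups of 4 libraries formed by the 28 named loops at 3 times, 6 had a library that stood apart from the other 3 by Dixon's criterion. Chance alone would mark about 1 in 20 groups, 4.2 here, so the number is close to it. Loop5381 had a scaled count of 74.9 in 0 h replicate 3, where the others had 99.1 to 100.1. Loop13343 had 54.5 in 72 h replicate 4, against 35.5 to 37.3, and loop13350 had 29.6 in the same library, against 24.3 to 24.9. Loop13748 had 14.6 in 0 h replicate 4, against 19.1 to 19.9. Loop19493 had 14.5 in 6 h replicate 4, against 24.0 to 24.4, and loop21933 had 104 in 72 h replicate 3, against 115 to 116.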

How the results depend on the processing

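The rule found 336 loops, and 199 with a minimum fold of 1.5, 177 with a ratio of 72 h to 6 h between 0.9 and 1.1, and 664 after summing replicates 3 and 4 of each time, an alternative chosen after seeing the data. Leaving out single libraries gave 349 to 554, the highest without 0 h replicate 2. Leaving out or summing libraries relaxes the condition that every treated library exceeds every 0 h library. Higher counts in these settings therefore follow in part from the rule. Of the loops, 257 (76.5%) were also found with TMM scaling and 210 (62.5%) with a correction for loop length. The median length of 320 kb became 360 kb with TMM scaling and 200 kb with the length correction. Calls at 6 h numbered 166, and 100 with no filter, 31 with DESeq2 and 64 to 165 without single libraries. Calls at 72 h numbered 269, and 179 with DESeq2 and 222 to 272 without single libraries. Higher neighbours at 6 h numbered 36, and 9 with DESeq2, 27 with the length correction and 14 to 34 without single libraries. With anchors within 1 bin they numbered 60 of a larger set of 1219 (4.92%). At 72 h higher neighbours numbered 186, and 122 with DESeq2, 138 with the length correction and 154 to 186 without single libraries. Within 1 bin they numbered 333 of the 1219 (27.3%, against 29.3% at shared anchors). Loops with a gene end in an anchor numbered 109, with 190 when ends within 10 kb and 265 when genes over an anchor were counted.

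Median log2 fold changes in replicates that did not choose the loops kept their direction. In replicates 3 and 4 at 6 h the value of 0.19 became 0.22 with library totals, 0.16 with the length correction, 0.18 with filterByExpr, 0.23 with a minimum fold of 1.5, 0.18 with 72 h replicates 3 and 4 summed and 0.18 to 0.21 without single libraries. At 72 h the value of 0.37 became 0.43, 0.29 and 0.43 with totals, length correction and the fold of 1.5, and 0.36 to 0.38 without single libraries. In replicates 1 and 2 the value of 0.22 at 6 h became 0.28, 0.17 and 0.25 in that order, and 0.21 to 0.27. The value of 0.28 at 72 h became 0.33 with totals and 0.22 with the length correction, and 0.27 to 0.34 without single libraries. The cause of these changes was not tested.

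Replicate numbers are shared between times, and 22 of 24 comparisons were best with their own number. The correlations of deviations were small (0.018 to 0.115, above 0.1 in 1 of 12 pairs) and missed the criterion used for pairing. Counting error also lowers such correlations, so that criterion cannot show that the libraries were unpaired. The main fit had no replicate block. A replicate block gave 186 calls at 6 h and 275 at 72 h. Counts near 10 have an exact 95% Poisson interval of 4.8 to 18.4, which limits single loops of low count.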
